A study of Mus musculus with 3 samples.

Results

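The ETS transcription factors form a family of DNA-binding proteins, of which 10 genes are described here in cells sorted from embryonic mouse dorsal root ganglia (DRG) by a green fluorescent Ret reporter, Ret being the receptor tyrosine kinase that GDNF family ligands act through. The members were chosen by family name with results of these libraries already known, and the ratio of Ets1 in one library and the level of Etv1 were among the values that selected the family. Their levels and ratios are therefore given as a description. All 10 members were found among the 41388 genes of the deposited tables. Ets1, Ets2, Etv1, Etv4, Etv5, Etv6, Fli1, Erg, Elk1 and Elk3 were matched by Ensembl identifier.

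Each of 3 libraries, D, B and C, was made from a separate pool of sorted cells from C57BL/6 embryos at 12.5 days post coitum, male and female together, and the libraries form a single group with no untreated or mutant counterpart. Library D pooled 60 ganglia from 3 embryos, library B 340 ganglia from 17 embryos and library C 300 ganglia from 15 embryos, all from lower thoracic to first sacral levels. Every embryo carried the Ret-EGFP reporter, named in the sample labels as a transgene, Tg(Ret-EGFP)SJ/, and in the series text as a heterozygous knock-in at Ret. In a knock-in these cells would have a single intact Ret allele. Total counts were 20966139 in D, 18072199 in B and 11666241 in C. Neuron markers were the most abundant of the marker lists in each pool, with all 9 at 1 TPM or more (TPM being counts per base of gene, scaled to the same total in each library), and Ret itself stood at 60.9 TPM in D, 26.9 in B and 33.5 in C. Fewer cells of a type and less RNA per cell cannot be told apart in such pools.

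ETS proteins share a DNA-binding domain that reads a GGAA core, and many of them are end points of receptor tyrosine kinase signalling through the RAS, MEK and ERK kinases. ERK phosphorylates ETS activators such as Etv1, Etv4, Etv5, Ets1, Ets2 and Elk1, and the Elk proteins act together with serum response factor. In sensory ganglia the family is best known for Etv1, which proprioceptive neurons need to reach motor neurons in the spinal cord, and for Etv4 and Etv5, which act downstream of neurotrophins in axon growth and downstream of Ret in the mouse kidney.

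Promoter sequence from RefSeq (GRCm38.p6, from 250 bases before to 50 bases after an annotated start) was matched for 7 members, with 11 windows in all. Ets1, Etv4 and Fli1 had no entry. The windows below are shown because Elk3 and Etv5, together with Ets1, had a CPM (counts scaled to the library total) in library D at least 2 times that of the higher of B and C, while Etv1 held the most even level of the abundant members. Capitals mark the ETS core GGAA on either strand, TTCC being its complement. Elk3 lies on the minus strand at chr10:93311110-93311409, the upstream and downstream starts of Etv5 on the minus strand at chr16:22439521-22439820 and chr16:22438319-22438618, and the upstream start of Etv1 on the plus strand at chr12:38779832-38780131.
Elk3: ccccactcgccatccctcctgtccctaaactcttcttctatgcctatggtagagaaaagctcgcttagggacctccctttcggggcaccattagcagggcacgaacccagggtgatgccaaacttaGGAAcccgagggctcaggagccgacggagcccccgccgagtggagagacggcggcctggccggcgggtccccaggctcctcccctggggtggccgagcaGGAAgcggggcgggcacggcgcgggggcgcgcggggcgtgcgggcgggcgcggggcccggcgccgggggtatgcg
Etv5 upstream: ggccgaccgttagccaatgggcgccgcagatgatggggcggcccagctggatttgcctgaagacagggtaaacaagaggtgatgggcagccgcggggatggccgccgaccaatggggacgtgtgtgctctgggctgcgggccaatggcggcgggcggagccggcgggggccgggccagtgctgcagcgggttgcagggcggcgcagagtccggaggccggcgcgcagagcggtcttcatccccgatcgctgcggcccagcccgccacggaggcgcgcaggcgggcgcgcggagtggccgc
Etv5 downstream: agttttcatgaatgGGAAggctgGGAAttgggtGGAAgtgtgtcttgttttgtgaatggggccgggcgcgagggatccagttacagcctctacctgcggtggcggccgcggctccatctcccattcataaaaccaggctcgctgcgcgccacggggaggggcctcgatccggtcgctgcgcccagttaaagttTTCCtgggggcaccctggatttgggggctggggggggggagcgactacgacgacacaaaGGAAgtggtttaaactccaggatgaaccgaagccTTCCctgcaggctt
Etv1 upstream: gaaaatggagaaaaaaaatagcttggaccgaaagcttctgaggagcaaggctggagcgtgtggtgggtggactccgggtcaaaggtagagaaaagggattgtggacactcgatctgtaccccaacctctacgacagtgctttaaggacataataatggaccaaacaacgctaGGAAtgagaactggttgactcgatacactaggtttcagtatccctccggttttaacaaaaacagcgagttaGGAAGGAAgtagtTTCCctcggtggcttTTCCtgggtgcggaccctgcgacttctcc

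The core occurred 2 times in the Elk3 window, 0 times at the upstream and 6 times at the downstream Etv5 start, and 5 times at Etv1. These counts describe common letters: GGAA was present in 10 of the 11 member windows and in 96.0% of all 32851 promoter windows of this length, with a median of 3 matches. The longer string GGAAGT, which contains the core, was found in 2 of 11, at Etv1 and at the downstream Etv5 start, against 23.8% of all windows. CCGGAAGT, which contains both, was in 0 of 11 and in 3.89% of all windows. The upstream Etv5 and the Elk3 windows were GC-rich, at 74.0% and 71.3%, and held 37 and 31 CpG pairs, against a median of 52.7% and 7 pairs over all windows. Gene counts do not tell from which start the transcripts came.

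At 1 TPM or more in each library, 8 of the 10 members were detected, a limit that 28.7% of all counted genes reached. The summed TPM of the 10 members was 180 in D, 58.1 in B and 64.7 in C. Without Ets1 the sums were 112 in D, 56.1 in B and 63.0 in C. A shift of the whole scale lies in these values, since the median log2 TPM ratio of D over the mean of B and C was 0.66 across the 15727 genes fitted below, and 0.22 with CPM. Ratios of D in the text below are therefore edgeR's fitted values, for which the median over all genes was -0.02.

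**Figure D1:**
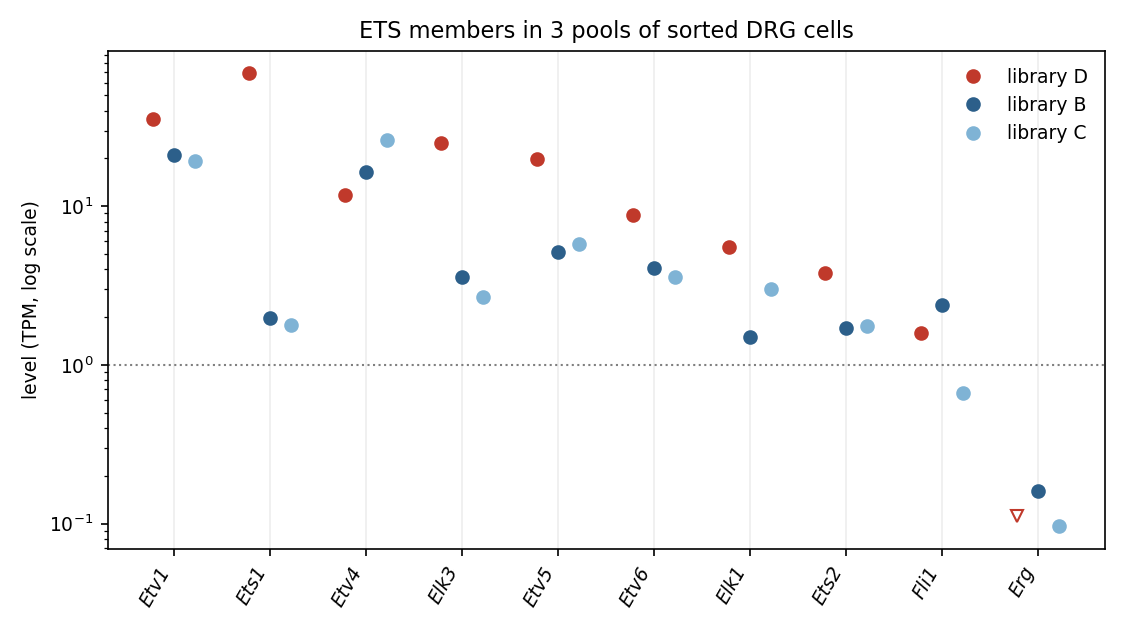
Level of each ETS member in TPM (log scale) in libraries D, B and C, ordered by the mean. Each point is 1 library, the open triangle is the level that 3 counts would give where a library had 0 counts, and the dotted line is 1 TPM. Ets1 stood at 68.7 TPM in D and below 2 TPM in B and C, while Etv4 was the abundant member that was lowest in D.

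Ets1, the founding member, which acts in lymphoid cells and in neural crest, set library D apart. The gene (ENSMUSG00000032035, chromosome 9, 32636221 to 32757820, plus strand, GRCm38, 8476 counted bases) had 4490 counts in D, against 151 in B and 91 in C. In TPM it stood at 68.7 in D, 1.98 in B and 1.79 in C. The 2 larger pools were alike and library D lay far above both. In D its level exceeded that of 88.5% of genes with a count, against 46.7% in B and 39.3% in C. The fitted log2 ratio of D over B and C was 4.47 ± 0.45 (approximate SE), which ranked 1 of the 15727 fitted genes. With a smooth trend of gene length removed it was 3.80 ± 0.49, and with length and transcript GC content removed 3.65 ± 0.47.

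Its relative Ets2, known for its role in the trophoblast, did not show that excess. Ets2 (ENSMUSG00000022895, chromosome 16, 95702075 to 95721051, plus strand) stood at 3.77 TPM in D, 1.72 in B and 1.77 in C. The fitted log2 ratio of D over B and C was 0.40 ± 0.59, smaller than its SE.

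The fitted ratios of the PEA3 subfamily, Etv1, Etv4 and Etv5, split 3 ways before correction. With length and GC removed, Etv1 (-0.64 ± 0.49) and Etv4 (-0.73 ± 0.53) were close, and Etv5 (1.02 ± 0.50) lay above both. Etv1 (ENSMUSG00000004151, chromosome 12, 38779380 to 38868215, plus strand) had the highest mean of the family, 25.1 ± 8.81 TPM (SD, n = 3), a place that each library decides: Ets1 had the higher mean without B (35.3 against 27.2 TPM) and without C (35.4 against 28.1 TPM), and Etv4 without D (21.4 against 20.1 TPM). It stood at 35.2 TPM in D, 20.9 in B and 19.2 in C. On the fitted scale D and the other pools were close, with a log2 ratio of 0.11 ± 0.44, which turned to -0.40 ± 0.51 with the length trend removed and to -0.64 ± 0.49 with length and GC removed.

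Etv4 (ENSMUSG00000017724, chromosome 11, 101769742 to 101785371, minus strand) ran the other way. It had 283 counts or 11.8 TPM in D, against 463 counts or 16.5 TPM in B and 487 counts or 26.2 TPM in C. The lowest pool was thus D, the deepest library, and its fitted log2 ratio was -1.56 ± 0.58. Etv4 was the shortest and most GC-rich of the members, with 3104 counted bases and 58.7% GC. With the length trend removed the log2 ratio was -1.53 ± 0.59, and with length and GC removed it was -0.73 ± 0.53.

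Etv5 (ENSMUSG00000013089, chromosome 16, 22381309 to 22439719, minus strand), which in the mouse kidney acts with Etv4 downstream of Ret, did not follow Etv4. It stood at 19.9 TPM in D, 5.16 in B and 5.81 in C. The level in D lay above both other pools, which were close to each other. The fitted log2 ratio was 1.15 ± 0.48, and 1.02 ± 0.50 once length and GC trends were removed.

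Of the ternary complex factors, which bind DNA with serum response factor, Elk3 exceeded Elk1 in D and B but not in C. Elk3 (ENSMUSG00000008398, chromosome 10, 93247414 to 93311135, minus strand), known as a repressor that ERK signalling turns into an activator, stood at 24.9 TPM in D, 3.61 in B and 2.68 in C. Again D lay above both, by a fitted log2 ratio of 2.27 ± 0.48, or 1.67 ± 0.50 after the same correction. Elk1 (ENSMUSG00000009406, chromosome X, 20933395 to 20950608, minus strand), a direct ERK substrate, stood at 5.50 TPM in D, 1.50 in B and 3.01 in C. Its log2 ratio of 0.57 ± 0.65 did not exceed its SE, and it was 0.12 without B and 1.17 without C. Elk1 shares 76 exon bases with Uxt on the same strand.

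Etv6, a repressor that blood formation in the bone marrow needs, had a ratio close to its SE. Etv6 (ENSMUSG00000030199, chromosome 6, 134035700 to 134270158, plus strand) stood at 8.78 TPM in D, 4.10 in B and 3.57 in C. The fitted log2 ratio was 0.49 ± 0.50, and it turned to -0.024 ± 0.55 with the length trend removed and to -0.22 ± 0.53 with length and GC removed. It shares 135 exon bases with the antisense gene Gm17089, which had 7 counts in D and 0 in B and C.

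The ERG subfamily was low. Fli1, a factor of megakaryocytes and endothelium (ENSMUSG00000016087, chromosome 9, 32422204 to 32542861, minus strand), had 43 counts in D, 75 in B and 14 in C, or 1.60, 2.39 and 0.67 TPM in D, B and C. Its level was highest in B, and its log2 ratio in D was -0.60 ± 0.90. Against B alone D was lower, with a ratio of -1.22, and against C alone it was higher, with 0.47. Erg, an endothelial and blood stem cell factor (ENSMUSG00000040732, chromosome 16, 95359169 to 95586593, minus strand), had 0 counts in D, 5 in B and 2 in C. A count of 0 in D allows up to 3 counts, or 0.112 TPM, and this limit, like all such limits here, covers counting error only. The limit in D lay below the level of Erg in B, 0.160 TPM, and above that in C, 0.0962 TPM. Between B and C the exact counting interval of the Erg ratio included no difference. Erg did not pass the count filter of the fit, and a difference between D and the other pools was not tested.

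**Figure D2:**
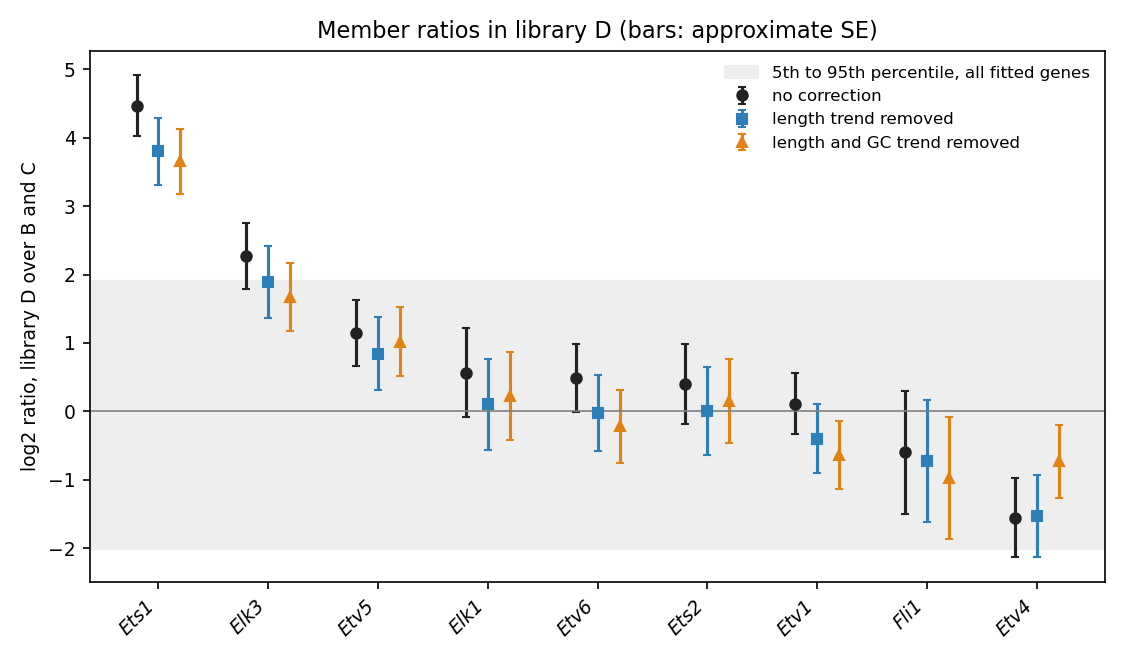
Fitted log2 ratio of library D over B and C for the 9 members that passed the count filter, without correction and with the trend of gene length, or of length and GC content, removed. Bars are approximate standard errors and the grey band spans the 5th to 95th percentile of all 15727 fitted genes; Ets1 and Elk3 lie above the band without correction and Etv1 and Etv6 cross 0 with the trends removed.

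The background of these ratios was wide. In edgeR's quasi-likelihood fit of D against B and C, 0 of 15727 genes passed an adjusted p of 0.05, or 0%, and so 0 of the 9 fitted members. An unadjusted p under 0.05 was reached by 3046 genes, and DESeq2 called 688 of the 11680 genes it gave an adjusted p, or 5.89%, with the members Ets1 and Elk3 among them. In the same fit of B against the others 0% of genes were called (174 were under 0.05 before adjustment, and 1 was called by DESeq2), and of C 0.782%, with no member in either. A fitted ratio of 4-fold or more higher in D was found for 4.19% of genes and for 2 of the 9 members, and 4-fold or more lower for 5.13% of genes and 0 of the 9. In CPM, without any fit, 3 of the 9 members, Ets1, Elk3 and Etv5, were at least 2 times higher in D than in the higher of B and C, as were 20.5% of genes. Since this contrast was among the results that chose the family, the members' counts are not read against these shares. For the same reason DESeq2's calls of Ets1 and Elk3 are no support for their ratios. Longer genes tended to have the higher ratio in D (Spearman rho 0.41 over all fitted genes) and GC-rich genes the lower one (rho -0.34), a description over genes that share these libraries.

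B and C, the 2 larger pools, gave a comparison that does not involve library D. The CPM of C over B was 0.95-fold for Etv1, 0.93-fold for Ets1, 1.16-fold for Etv5, 0.90-fold for Etv6 and 1.06-fold for Ets2. For these, Elk3 and Erg the exact 95% counting interval of the ratio included no difference. Etv4 was 1.63-fold higher in C, with a log2 interval of 0.52 to 0.89, and Elk1 2.06-fold higher, with 0.59 to 1.50. Fli1 was lower in C, at 0.29-fold, with a log2 interval of -2.73 to -0.95. Over all fitted genes the median absolute log2 CPM ratio between these pools was 0.52. With 1 library on each side there is no replicate check of these ratios.

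The make-up of the family followed from these values. The PEA3 members held 37.2% of the summed member TPM in D, 73.4% in B and 79.0% in C, although their summed level was highest in D, with 67.0 TPM in D, 42.6 in B and 51.2 in C. Ets1 and Ets2 held 40.2% in D, 6.36% in B and 5.50% in C, and the Elk genes 16.9% in D, 8.80% in B and 8.77% in C. Etv6 held 4.87% in D, 7.05% in B and 5.51% in C, and Fli1 with Erg 0.89% in D, 4.38% in B and 1.18% in C. These shares do not depend on the scaling between libraries. They carry no correction for the trends of gene length and GC content that differed between libraries. Ets1 was the longest member, with 8476 counted bases, and Etv4 the shortest, with 3104.

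**Figure D3:**
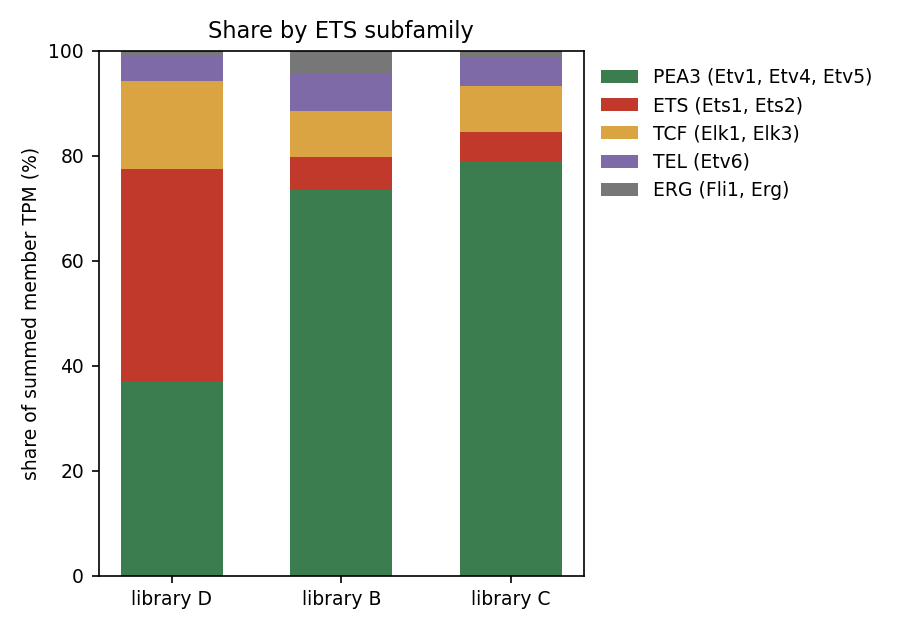
Share of the summed TPM of the 10 members held by each ETS subfamily, in percent, 1 stacked bar for each of libraries D, B and C. Etv1, Etv4 and Etv5 made up 37.2% in D and over 73% in B and C, and Ets1 with Ets2 made up 40.2% in D.

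Ordered by mean TPM the members ran Etv1, Ets1, Etv4, Elk3, Etv5, Etv6, Elk1, Ets2, Fli1 and Erg. For most neighbours this order did not hold within each library. Of 8 neighbouring pairs with counts in every library, 2 kept 1 direction in 3 of 3 libraries by more than the SD of the log2 ratio. Etv5 exceeded Etv6 by 0.74 ± 0.42 and Etv6 exceeded Elk1 by 0.79 ± 0.61 (SD, n = 3 each). An exact two-sided sign-flip test gave p = 0.25 for both, its minimum at n = 3, so that no pair can pass 0.05. Etv1 and Ets1 changed places: the log2 ratio of Etv1 over Ets1 was -0.96 in D, 3.40 in B and 3.42 in C.

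The genes whose pattern over the 3 libraries was most like that of Ets1 were sought among 9277 genes with a mean of at least 5 TPM, by the Euclidean distance of centred log2(TPM + 0.1). The 5 nearest were Slitrk6 (distance 0.18), Slitrk2 (0.36), Spry2 (0.45), Gja1 (0.49) and Gulp1 (0.51). Slitrk6, a transmembrane protein gene, stood at 69.7 TPM in D, 2.33 in B and 2.16 in C, close to the values of Ets1 itself. Spry2, a feedback inhibitor of receptor kinase signalling, stood at 856 TPM in D, 37.0 in B and 34.8 in C. Gja1, a gap junction gene, stood at 531 TPM in D, 23.3 in B and 13.5 in C. Likeness over 3 libraries that differ mainly in 1 of them is a weak description.

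Outside the 10 members, 16 further ETS family genes were in the tables and 6 were detected in each library. Elf2 led with 17.5 TPM in D, 8.33 in B and 7.72 in C. Gabpa, a subunit of a factor that activates nuclear genes of mitochondrial proteins, stood at 15.2 TPM in D, 2.53 in B and 4.37 in C, and shares 397 exon bases with the antisense gene Atp5j. Elf1, which has a role in lymphoid cells, stood at 11.4 TPM in D, 3.93 in B and 5.10 in C. Of the 9 fitted genes of this list 6 had a positive and 3 a negative log2 ratio in D, 0 passed 4-fold either way, and the median was 0.62, against -0.02 over all fitted genes. Spi1, the macrophage and B cell factor, had 0 counts in D, 1 in B and 2 in C, and Etv2, the early endothelial factor, had 0 in D, 4 in B and 0 in C.

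**Figure D4:**
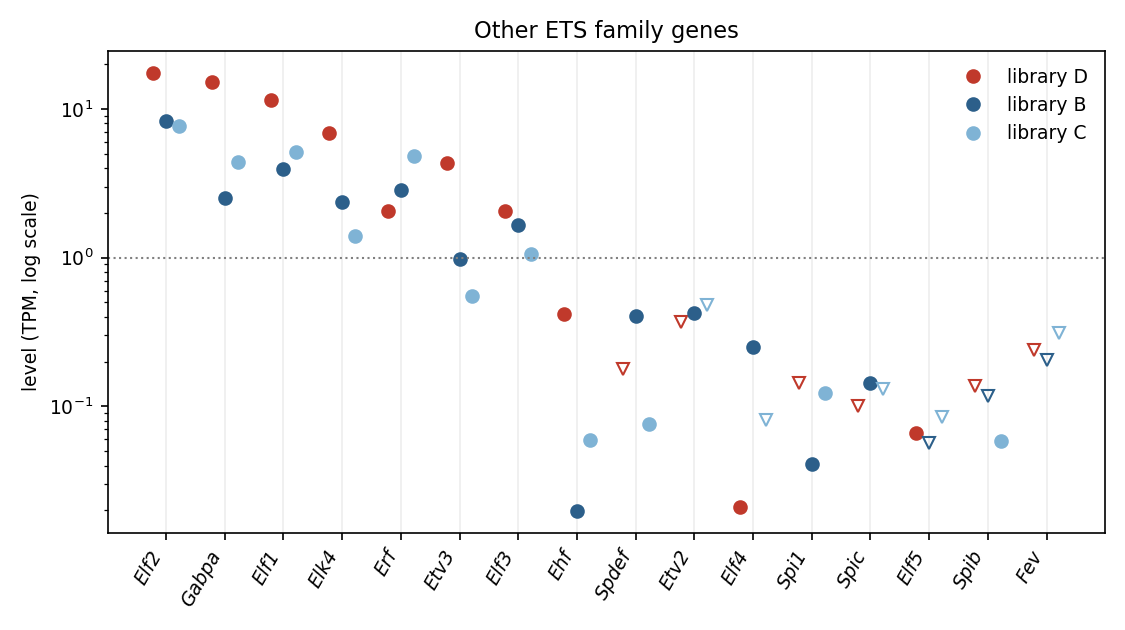
Level of 16 other ETS family genes in TPM (log scale) in libraries D, B and C, ordered by the mean. Points are single libraries, open triangles mark the level of 3 counts where a library had 0, and the dotted line is 1 TPM; Elf2, Gabpa and Elf1 lead, and Ehf and the genes to its right lie below 1 TPM in each library.

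The kinases upstream were present in each pool, with 9 of 9 ERK cascade genes detected. Nras stood at 1042 TPM in D, 250 in B and 241 in C, and Mapk3, the gene of an ERK kinase, at 391 in D, 418 in B and 269 in C. Map2k1, a MEK kinase gene, stood at 74.9 TPM in D, 25.8 in B and 28.3 in C. Braf, a RAF kinase gene, stood at 14.3 TPM in D, 1.72 in B and 1.82 in C, with a log2 ratio of 2.30 ± 0.46. It was the 1 gene of this list past 4-fold higher in D, as were 4.19% of all fitted genes. Braf was also the longest gene of the list, with 13862 counted bases. Ratios of genes outside the members carry no length or GC correction. Of the 9 cascade genes, 6 had positive and 3 negative ratios in D, with a median of 0.41.

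Repressors and degradation factors of the PEA3 proteins were likewise detected, 7 of 7. Trib2, whose family recruits the ubiquitin ligase Cop1, led with 59.3 TPM in D, 17.2 in B and 16.6 in C. Cic, the repressor that ERK signalling releases from Etv1, Etv4 and Etv5, was lowest in D, with 3.72 TPM in D, 5.36 in B and 8.60 in C and a log2 ratio of -1.61 ± 0.58. Etv4 had the same order of libraries. At 61.6% and 58.7% GC, Cic and Etv4 lay above the median of 49.6% over fitted genes. No GC-corrected ratio was computed for Cic, and a link between Cic and Etv4 was not tested. Det1, which works with Cop1, was even, with 11.6 TPM in D, 7.01 in B and 6.90 in C and a log2 ratio of 0.04 ± 0.52. Of the 7 genes 6 had positive ratios in D and 1 a negative one, with a median of 0.18. Among the cofactors 7 of 9 were detected, led by the coactivator gene Crebbp with 75.5 TPM in D, 19.8 in B and 9.29 in C, and Srf, the partner of the Elk proteins, stood at 5.55 TPM in D, 2.90 in B and 1.87 in C. Of the 9 cofactors 7 had positive and 2 negative ratios, with a median of 0.51.

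Genes known to respond to ERK signalling had a median log2 ratio of 1.14 in D over 16 fitted genes, against -0.02 over all. Of the 16, 13 were positive and 3 negative, namely Ier2 with -1.79 ± 1.23, Ier3 with -1.50 ± 0.54 and Ccnd1 with -0.31 ± 0.62. Past 4-fold higher were 4 of them, as were 4.19% of all fitted genes. These were Spry2 with 3.87 ± 0.40, Egr2 with 3.24 ± 0.60, Dusp6 with 3.17 ± 0.62 and Egr1 with 2.35 ± 0.61. Fos, an immediate early gene that Elk proteins regulate, had 1.62 ± 0.59 and stood at 484 TPM in D, 143 in B and 53.3 in C. Egr2, a zinc finger factor of Schwann cells, stood at 12.0 TPM in D, 0.62 in B and 0.83 in C. As edgeR's test passed no gene at all in D, it does not set the genes of these lists apart. Of 4 kidney targets of Ret and its ETS factors 3 had a positive and 1 a negative ratio in D, with a median of 1.11. Mmp14, a matrix protease gene, stood at 32.9 TPM in D, 13.2 in B and 13.4 in C, and Cxcr4, Myb and Met were not detected in every library.

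Summed levels of several marker lists also differed between the libraries. Glia and Schwann precursor markers, 9 of 9 at 1 TPM or more in each library, summed to 4793 TPM in D, 3054 in B and 1515 in C. Their members differed. Fabp7, a lipid-binding protein gene of glial precursors and among the most abundant of the list, stood at 2017 TPM in D, 2487 in B and 1088 in C, with a fitted log2 ratio of -0.51 ± 0.53. Ednrb, an endothelin receptor gene, stood at 2138 TPM in D, 375 in B and 254 in C. Erbb3, the glial neuregulin receptor, stood at 163 TPM in D, 14.2 in B and 9.06 in C, Cdh19 at 17.3 in D, 1.89 in B and 1.17 in C, and Sox10 at 88.9 in D, 53.2 in B and 67.9 in C. The fitted log2 ratio of Sox10 in D was -0.15 ± 0.47, and of the 9 markers 7 had a positive ratio and 2 a negative one. Neural crest markers summed to 61.8 TPM in D, 23.4 in B and 17.2 in C. Of the 6, 5 were at 1 TPM or more in D, 6 in B and 4 in C. On the fitted scale 5 of the 6 had a positive ratio in D, with a median of 0.63 over the list. Twist1 had a negative ratio, -2.46 ± 1.03, with 1 count in D, 15 in B and 7 in C. Melanoblast markers summed to 39.5 TPM in D, 6.71 in B and 6.58 in C, led by Dct and Kit, and Mlana had 0 counts in each library. Neuron markers summed to 20495 TPM in D, 34431 in B and 25806 in C, and Tubb3, Stmn2 and Gap43 carried that sum. Not every marker was lower in D, where Dcx stood at 83.6 TPM, against 32.0 in B and 31.3 in C. On the fitted scale 8 of the 9 had a negative ratio in D and 1, Dcx, a positive one, with a median of -0.60. Mesenchyme markers summed to 98.1 TPM in D, 32.3 in B and 25.4 in C, but on the fitted scale 4 of 9 had a positive ratio in D and 5 a negative one, with a median of -0.48. The collagen genes carried that sum, Col1a2 with 53.0 TPM in D, 11.2 in B and 8.42 in C and Col3a1 with 26.2 in D, 4.30 in B and 6.08 in C. The part of these lists in the values of Ets1, Elk3 and Etv5 was not tested.

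Summed markers of the cells in which Fli1 and Erg are best known were highest in B. Endothelial markers summed to 7.42 TPM in D, 23.4 in B and 13.0 in C, with 3, 5 and 3 of the 12 at 1 TPM or more in D, B and C. Of these markers 1 was at 0 counts in D, none in B and 3 in C. Single genes differed. Esam stood at 8.90 TPM in B, against 1.04 in D and 1.34 in C. Egfl7 was highest in C, at 7.64 TPM, and Pecam1 in D, at 2.27 TPM. On the fitted scale 2 of 10 endothelial markers had a positive ratio in D and 8 a negative one. Megakaryocyte and platelet markers summed to 37.3 TPM in D, 1512 in B and 344 in C. Their part in the level of Fli1 was not tested. Proprioceptor markers, the cells in which Etv1 is best known, summed to 76.0 TPM in D, 79.0 in B and 75.7 in C, with all 4 detected. On the fitted scale 0 of the 4 had a positive ratio in D and 4 a negative one, with a median of -0.58. Among them Pvalb, a calcium-binding protein gene, stood at 9.85 TPM in D, 18.9 in B and 15.4 in C.

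**Figure D5:**
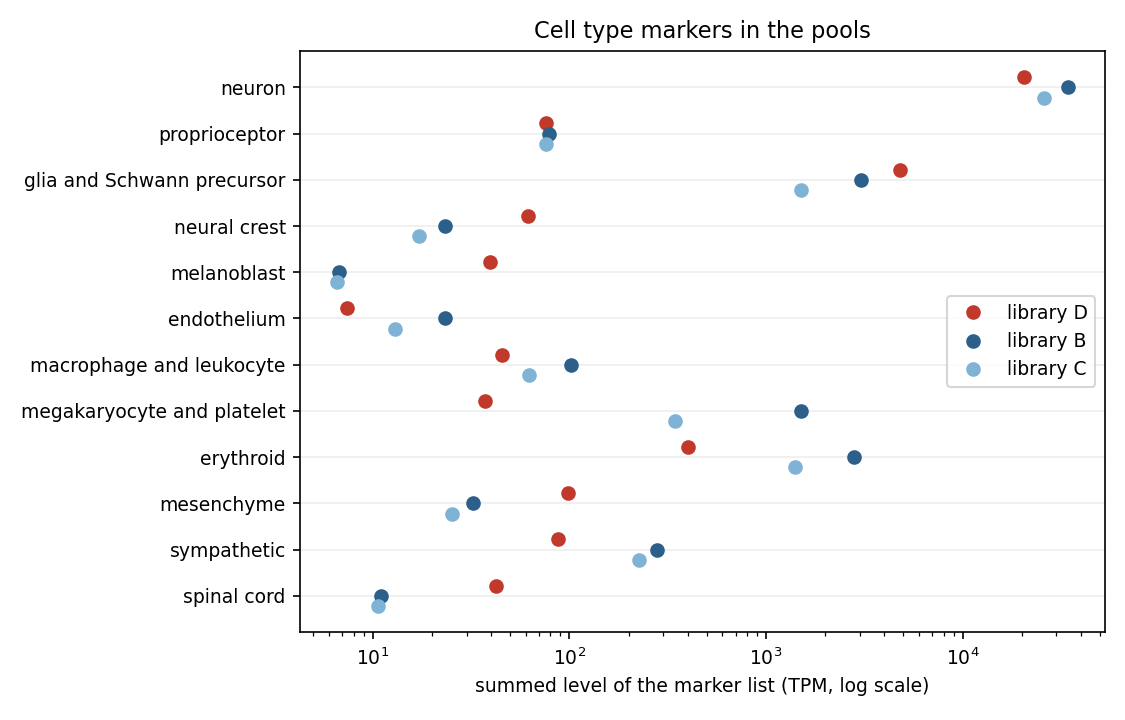
Summed TPM (log scale) of each list of cell type markers in libraries D, B and C, 1 point per library. Glia, neural crest, melanoblast, mesenchyme and spinal cord sums were highest in D, the spinal cord sum through Sox2 and the mesenchyme sum through Col1a2 and Col3a1. Endothelial, leukocyte, platelet, erythroid, sympathetic and neuron sums were highest in B, the neuron sum through Tubb3, Stmn2 and Gap43.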

How the data were processed

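The authors deposited raw counts, CPM and RPKM with a gene length for each library, per the file headers. Subread, featureCounts 1.4.5 and GRCm38.p2 are listed, without roles, per the submitters' processing notes. The annotation release and the strand setting were not given in the sources used here, and the low-input kit does not mark strand. Deposited CPM and RPKM followed from the deposited counts and were not used further. TPM was computed from count and the deposited length (unit other) over all genes. Of 41388 identifiers, 40254 had a symbol.

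Each library was set against the other 2 with edgeR 4.0.16 (quasi-likelihood, TMM, filterByExpr, prior count 2, Benjamini-Hochberg 0.05 over all genes), with only 1 residual degree of freedom, the single library being taken to vary as the pair does; p-values measure only the spread between these pools. Standard errors come from the ratio and its F statistic. The fit was also run on simulated counts that gave every gene the same spread and no length or GC trend, a simpler setting than these libraries. Alternatives used DESeq2 1.42.0, its size factors, no filter, single libraries left out and, with mgcv 1.9.3, trends of length removed; the correction by length and GC was added after seeing the data, with GC of the longest GENCODE transcript known for 99.4% of fitted genes.

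Members and lists were chosen with earlier results of these data known. The naming rule takes every member. Of each list it adds the 3 highest by mean TPM and those past 4-fold in D with at least 10 TPM in a library. Other genes of the lists were named after their values were seen, namely Srf, Sox10, Mlana, Met, Spi1, Etv2, Gata1, Ier2, Ier3, Ccnd1, Dcx and Twist1. Total counts were 20966139, 18072199 and 11666241 in D, B and C, and 3 counts, the limit of a count of 0, equal 0.143, 0.166 and 0.257 CPM. Without molecular identifiers, counting intervals cover counting error only.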

Additional observations from a re-analysis of the deposited data

How the results depend on the processing

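Of 185 alternative values, 163 stayed within the tolerance set for them (1 SD or SE, or 1.5 times for a count), 17 moved beyond it and 5 changed sign. For levels, shares and neighbour ratios, a value with a library left out was set against the SD of the same 3 libraries. Such a value could not move beyond that SD, so its place among the 163 says nothing about stability. The mean TPM of Ets1, 24.2, counted as within tolerance at 1.88 without D. Members detected in every library were 3 at a limit of 5 TPM, against 8 at 1 TPM. Neighbouring pairs apart beyond their spread, 2 with TPM, were 1 with CPM and 2 to 5 with a library left out (4 without B and 5 without D). With a library left out, only the remaining 2 had to share a direction. That rule is looser than 3 of 3, so these counts do not compare with the main one. Genes called in library D, 0 with TMM, were 8 with DESeq2's size factors, 688 with DESeq2, 1534 with no filter and 6 with the length trend removed, and in B DESeq2 called 1; the cause was not tested. Genes past 4-fold in D, 1466 in both directions, were 6431 past 2-fold, 945 with the length and GC trend removed, and 2408 without B and 1174 without C. The ratio in D changed sign for Etv1 (-0.40 with the length trend removed, -0.64 with length and GC removed), Etv6 (-0.024 and -0.22) and Fli1 (0.47 without B, against -1.22 without C). The ratios of Ets1, Elk3, Etv5, Elk1 and Ets2 stayed positive and that of Etv4 negative in every alternative run. That of Ets2 fell to 0.0055 with the length trend removed. With length and GC removed, the ratios of Ets1 (3.65), Elk3 (1.67) and Etv4 (-0.73) moved beyond 1 SE. No paired analysis was possible because the 3 libraries form a single group. Depth limits Erg and Fli1, whose highest counts were 5 and 75, and 1 library with the excess of Ets1 gives no replicate of it.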

Other observations

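Platelet genes were among the most uneven of the marker lists. Pf4, which encodes a chemokine of platelet granules, stood at 28.1 TPM in D, 1216 in B and 269 in C. Ppbp, another platelet chemokine gene, stood at 4.93 TPM in D, 190 in B and 49.3 in C, and Gp9, a platelet surface glycoprotein gene, at 2.08 in D, 97.8 in B and 21.4 in C. In library D the fitted log2 ratios were -5.37 ± 1.09 for Pf4, -5.19 ± 1.03 for Ppbp and -5.25 ± 1.14 for Gp9. Gata1, a factor of erythroid cells and megakaryocytes that was named after its values were seen, had 0 counts in D, 125 in B and 20 in C. Fli1, which is known to act on such genes in megakaryocytes, had 43 counts in D, 75 in B and 14 in C. In TPM it stood at 1.60 in D, 2.39 in B and 0.67 in C. Unlike Pf4, Ppbp and Gp9, it was higher in D than in C, and a link to them was not tested.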
